A study of Mus musculus with 6 samples.

Results

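The genes of cholesterol and fatty acid synthesis were examined in N18-Fms mouse prostate cancer cells, as a set of 34 genes given by name among the 36028 genes on the array. The set holds 6 enzymes of the mevalonate pathway, 10 enzymes from squalene to cholesterol, 5 regulators, 3 genes of sterol transport, 6 genes of fatty acid synthesis and 4 desaturases. The brightest probe stood for each gene. Of the 34, 33 had at least 1 group in which each array was well above background, and entered the tests. The sterol exporter gene Abcg1 was not well above background on any of the 6 arrays and was left out of every count.

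Expression was read from 6 single-color arrays in 3 groups of 2: unstimulated cells (Control) and cells given recombinant murine CSF-1 at 100 ng/mL for 24 h or for 48 h. CSF-1 is the growth factor of macrophages. The cells of all 3 groups were N18-Fms, made from N18, a single neomycin-selected clone of the TRAMP C2H line that carries a luciferase vector, by infection with a retrovirus that expresses murine c-fms (the CSF-1 receptor), followed by 2 rounds of sorting for the receptor. All were kept in high-glucose medium with fetal bovine serum, which contains sterols and fatty acids, and with dihydrotestosterone. The RNA came from 2 independent experiments. The times are those of the labels and of the study's results and figure, whereas its methods section gives shorter ones for the same arrays.

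Cells make cholesterol from acetyl-CoA through mevalonate, isoprenoids, squalene and lanosterol, and they make fatty acids from the same acetyl-CoA through malonyl-CoA. Most of the enzyme genes are targets of the sterol regulatory element-binding proteins (SREBPs), transcription factors that are held in the endoplasmic reticulum by Insig proteins and are carried to the Golgi for activation by Scap when sterol runs low. Oxysterols act through the liver X receptors (LXRs), which turn on sterol export by Abca1 and Abcg1 and also transcription of Srebf1. Prostate tumors are known for high lipid synthesis under androgen.

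SREBP sites in promoters usually stand beside sites for NF-Y and Sp1, so the promoter windows of the members were searched for 3 motifs on both strands: a sterol regulatory element (TCACNCCAC), the NF-Y box (CCAAT) and the E-box (CACGTG). RefSeq windows (build GRCm38.p6) of 250 bases before to 50 after the start site were at hand for 26 members and for 27025 genes in all. The NF-Y box was in 21 of 26 members (80.8%) and in 41.1% of all genes, the E-box was in 6 of 26 (23.1%) and in 8.09% of all genes, and the sterol regulatory element was in 1 of 26 and in 1.44% of all genes. None of these motifs contains another, and a match is a run of letters, not a bound site. The element was searched as 1 fixed pattern, so a window without a match may still hold a variant of it. Of the 9 members that were lower at 24 h (given below by name), 8 had a window, of which 6 held the NF-Y box, 1 the E-box and 0 the sterol regulatory element.

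The 250 bases before the start site are shown, 5′ to 3′ on the strand of the gene and with the motif matches in capitals, for the 3 members with the largest falls at 24 h (Insig1, Cyp51 and Idi1), for the fallen member with the most NF-Y boxes (Mvk) and for the single member with the sterol regulatory element (Hmgcs1). They lie at chr5:28071162-28071411 (plus strand) for Insig1, chr5:4104698-4104947 (minus strand) for Cyp51, chr13:8885356-8885605 (plus strand) for Idi1, chr5:114444019-114444268 (plus strand) for Mvk and chr13:119690101-119690350 (plus strand) for Hmgcs1, all in GRCm38.p6.
Insig1: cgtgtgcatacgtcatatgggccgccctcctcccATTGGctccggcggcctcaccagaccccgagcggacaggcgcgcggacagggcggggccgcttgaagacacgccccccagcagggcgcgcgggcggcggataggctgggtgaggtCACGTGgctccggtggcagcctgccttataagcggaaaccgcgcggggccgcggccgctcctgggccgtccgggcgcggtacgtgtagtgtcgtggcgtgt
Cyp51: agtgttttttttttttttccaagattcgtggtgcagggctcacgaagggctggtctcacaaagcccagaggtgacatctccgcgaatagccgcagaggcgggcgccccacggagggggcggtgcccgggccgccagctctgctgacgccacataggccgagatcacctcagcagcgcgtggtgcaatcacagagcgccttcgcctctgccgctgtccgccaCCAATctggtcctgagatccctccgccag
Idi1: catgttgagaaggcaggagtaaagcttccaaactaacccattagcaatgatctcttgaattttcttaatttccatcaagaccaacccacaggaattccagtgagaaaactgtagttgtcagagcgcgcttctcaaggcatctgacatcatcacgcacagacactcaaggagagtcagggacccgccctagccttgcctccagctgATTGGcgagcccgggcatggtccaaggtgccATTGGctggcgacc
Mvk: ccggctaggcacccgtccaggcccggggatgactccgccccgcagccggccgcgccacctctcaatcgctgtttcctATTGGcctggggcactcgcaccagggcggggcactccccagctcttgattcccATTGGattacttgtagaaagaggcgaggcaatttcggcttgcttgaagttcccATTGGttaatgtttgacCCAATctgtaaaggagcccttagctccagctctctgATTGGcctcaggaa
Hmgcs1: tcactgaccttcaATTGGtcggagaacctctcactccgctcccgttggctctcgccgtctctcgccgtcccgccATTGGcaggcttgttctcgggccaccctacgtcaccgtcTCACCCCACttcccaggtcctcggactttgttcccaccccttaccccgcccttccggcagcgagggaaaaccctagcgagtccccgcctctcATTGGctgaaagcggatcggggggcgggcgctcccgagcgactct
Capitals of 5 letters are the NF-Y box or, read on the other strand, its reverse complement, the capitals of 6 letters in Insig1 are the E-box, and those of 9 letters in Hmgcs1 are the sterol regulatory element. The window of Mvk held 5 NF-Y boxes, while Hmgcs1, with NF-Y boxes and the element, was not among the genes called lower.

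**Figure D1:**
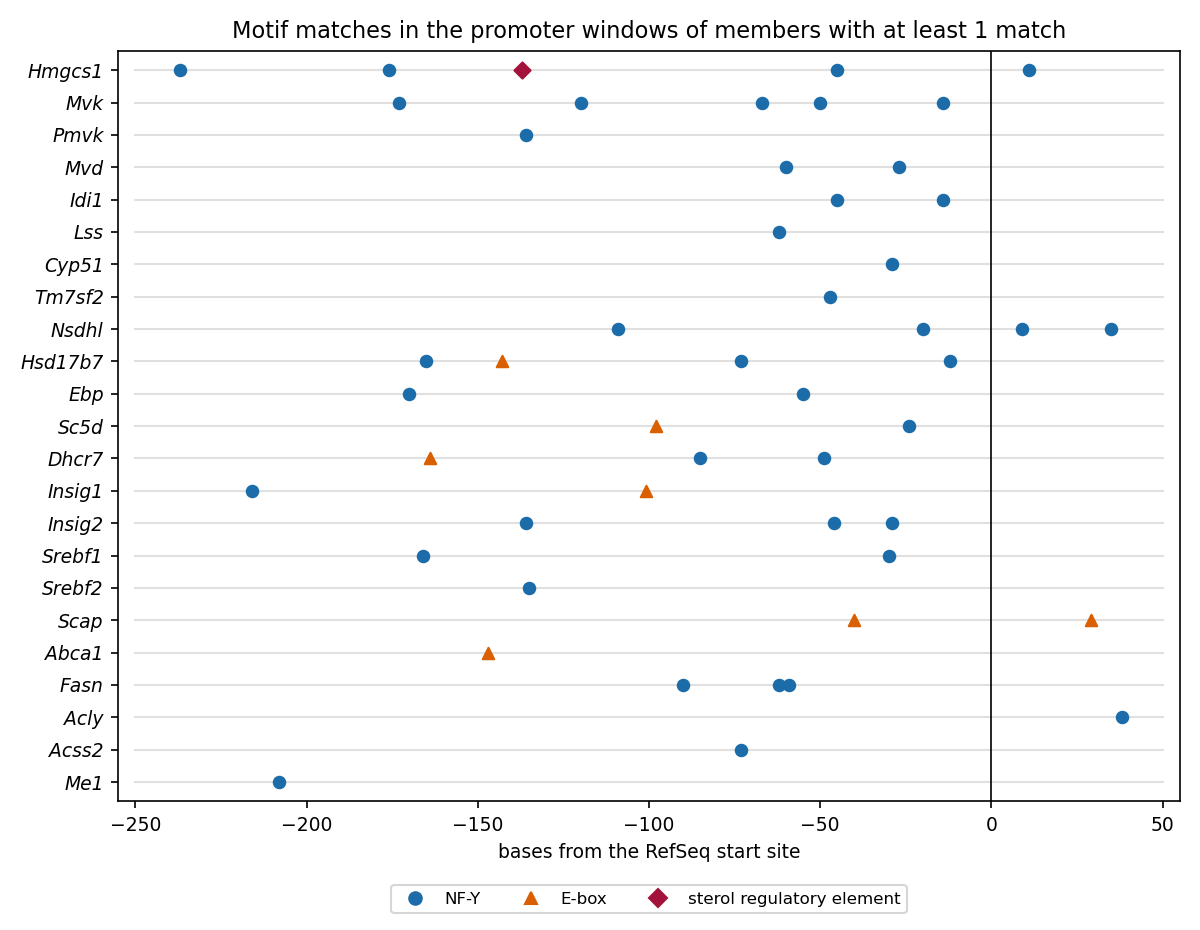
Positions of the 3 motifs in the promoter windows (horizontal axis, bases from the RefSeq start site at 0) for the 23 members with at least 1 match, 1 line a gene. NF-Y boxes are spread over 21 of these genes and mostly lie before the start. E-boxes are in 6, and the pattern searched for the sterol regulatory element is matched in Hmgcs1 alone.

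The level of a gene is given as log2 of the spot signal minus log2 of the 75th percentile of that array, so 0 is the 75th percentile, and levels are compared between arrays for the same probe only. Between 58.7% and 72.0% of the 59305 spots of an array were well above background, and none was saturated. Replicate arrays correlated with Pearson's r of 0.993 to 0.994 across the 24648 genes tested, and the median distance of a member between its 2 replicates was 0.11 to 0.15 on the log2 scale. The first 24 h array lay on another slide, scanned separately, from the 5 other arrays. Csf1r was at 4.88 to 5.34 on all 6 arrays. Of 10 markers of prostate epithelium, 4 were well above background on all 6 arrays, while Cdh1 and Epcam were on neither Control array. All 8 fibroblast markers were well above background on all 6 arrays, and their summed linear level, in multiples of the 75th percentile, was 650 and 660 in Control, 431 and 436 at 24 h and 418 and 412 at 48 h. The markers did not move as one: at 24 h 4 of the 8 were lower, among them Col1a1 and Col1a2, and 2 were higher, Dcn (2.08, adjusted p = 0.0156) and Pdgfra (1.33, adjusted p = 0.0178). The part of this shift in the results was not tested, and in RNA of whole cultures fewer cells of a kind and less RNA per cell cannot be told apart.

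The first question was how the genes differed between unstimulated cells and cells with 24 h of CSF-1. By limma, with p-values adjusted over the whole table (Benjamini-Hochberg), 9 of 33 members were lower (27.3%), against 5.99% of all genes, and 2 were higher (6.06%), against 8.02% of all genes. Of these 2, Abca1 entered the tests only through the stimulated groups, where it is bright, so its place among the higher genes follows in part from the filter. With only genes well above background on all 6 arrays, 11 of 32 members were lower (8.85% of all genes) and 1 was higher (8.50%). The 9 were Mvk, Idi1, Sqle, Cyp51, Insig1, Insig2, Acaca, Elovl6 and Me1, and the 2 were Srebf1 and Abca1. The fitted change was below 0 for 23 of 33 members. The median change of the members was -0.26 (log2) and that of all genes 0.037, and 24 of 33 members lay below the median of all genes. At the study's thresholds of an unadjusted p under 0.05 and at least a 2-fold change, 2 members were higher (5.86% of all genes) and 0 lower (1.83%): each of the 9 falls was smaller than 2-fold.

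Without the 24 h array of the other slide, which leaves 1 array at that time, 0 members were called lower and 0 higher, while 1.47% and 2.90% of all genes were. The 9 genes were then changed by -0.99 to -0.45 (log2). With all arrays, 14 of 33 members (42.4%) were lower at an unadjusted p under 0.05 by limma, against 3506 of 24648 genes. The count of 9 also rested on the other arrays: it was 2 and 0 without the first and the second Control array, 1 without the second 24 h array, and 4 without either 48 h array. The share of all genes called lower fell in these fits too, from 5.99% to 1.59%, 0.978%, 1.1% and 3.49%.

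**Figure D2:**
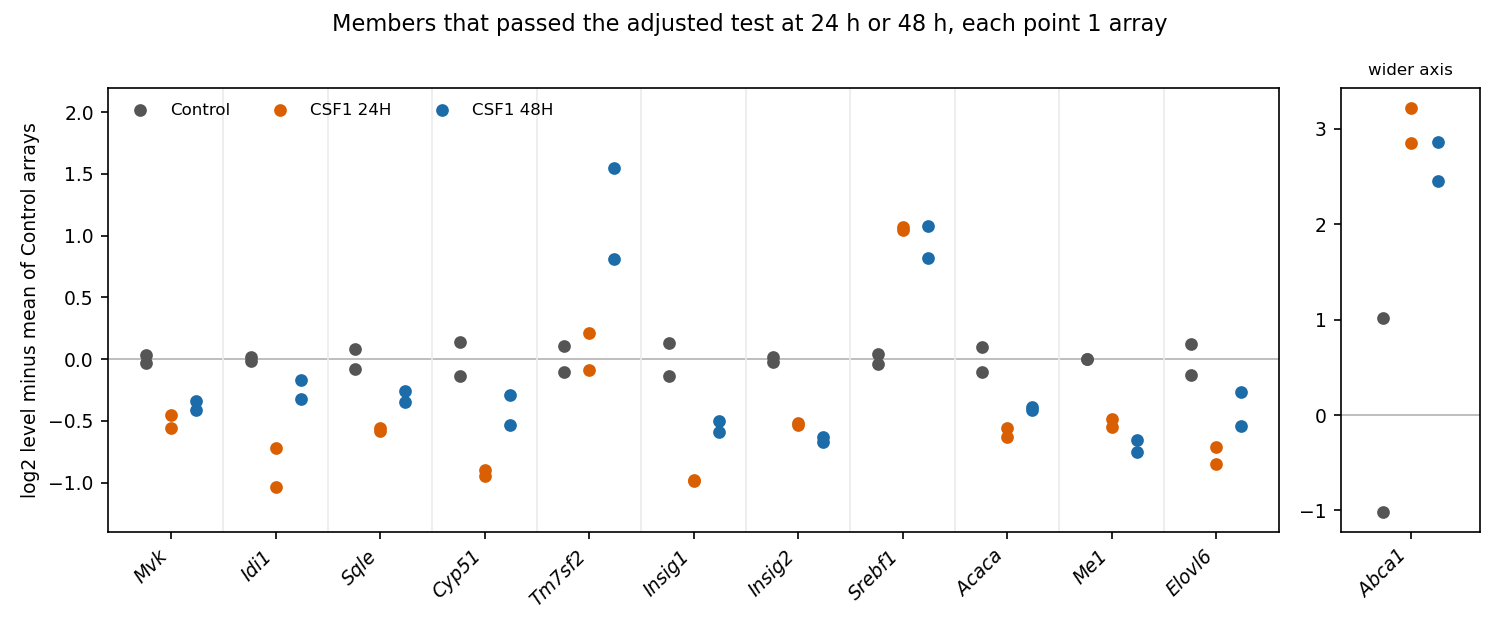
Log2 level of each array minus the mean of the Control arrays (vertical axis) for the 12 members that passed the adjusted test at 24 h or 48 h, each point 1 array of Control, CSF1 24H or CSF1 48H, with Abca1 on its own, wider axis. All 9 lower genes have both 24 h arrays and both 48 h arrays below both Control arrays, and for 7 of the 9 both 48 h arrays lie above both 24 h arrays. The 9 were picked by their calls on these same arrays, which favours such separation at 24 h, and both times share the Control arrays. The share of all genes so separated was not counted, so these counts do not measure how firm the falls are.

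In the mevalonate pathway, which turns acetyl-CoA into the isoprenoid units of sterols, all 6 members had a fitted change below 0 at 24 h and 2 were called. Idi1, isopentenyl diphosphate isomerase, was read by a probe at chr13:8891524-8891583 (mm9). Its level was 3.07 and 3.11 in Control, 2.05 and 2.37 at 24 h and 2.92 and 2.77 at 48 h. The 24 h arrays were the lowest and the 48 h arrays lay between them and Control, with no overlap between the groups. The change was -0.88 ± 0.15 (log2 ± SE, adjusted p = 0.0209 by limma, 1.84-fold lower) at 24 h and -0.25 (adjusted p = 0.317) at 48 h.

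Mvk, mevalonate kinase, was read by a probe at chr5:114910540-114910599 (mm9). It was at 3.05 and 2.99 in Control, 2.46 and 2.57 at 24 h and 2.61 and 2.68 at 48 h. All 4 stimulated arrays were below both Control arrays. The change was -0.51 ± 0.11 (adjusted p = 0.0406) at 24 h and -0.38 (adjusted p = 0.0826) at 48 h, and a further probe of the gene gave -0.56 and -0.48. The next enzyme, phosphomevalonate kinase (Pmvk), missed the threshold at both times with changes of -0.48 (adjusted p = 0.0538) and -0.46 (adjusted p = 0.0607). Its dimmer probe passed at 24 h (-0.57, adjusted p = 0.0364) in a separate limma fit over probes, where the bright probe was at 0.0613. The others were changed at 24 h by -0.32 for Mvd, -0.26 for Fdps and -0.16 for Hmgcs1, the synthase that opens the pathway, whose 95% interval ran from -0.53 to 0.21.

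Of the 10 enzymes from squalene to cholesterol, 2 were lower at 24 h, and 6 of 10 had a change below 0. Sqle is squalene epoxidase, the first oxygen-dependent step (probe at chr15:59162688-59162747, mm9). Its level was 3.67 and 3.83 in Control, 3.19 and 3.17 at 24 h and 3.49 and 3.40 at 48 h. Both 24 h arrays lay below the 48 h arrays, and these below Control. The change was -0.57 ± 0.11 (adjusted p = 0.0343) at 24 h and -0.30 (adjusted p = 0.146) at 48 h.

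Cyp51, lanosterol 14-alpha-demethylase, had its probe at chr5:4081471-4081530 (mm9). It was at -0.31 and -0.043 in Control, -1.12 and -1.08 at 24 h and -0.71 and -0.47 at 48 h. The order was the same as for Sqle, without overlap. Cyp51 fell by 0.92 ± 0.15 (log2 ± SE, adjusted p = 0.0199, 1.90-fold) at 24 h, and at 48 h its change was -0.41 (adjusted p = 0.137).

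Tm7sf2, a sterol C14-reductase that acts just after Cyp51, was higher at the later time (probe at chr19:6062882-6062941, mm9). Its level was -0.70 and -0.91 in Control, -0.59 and -0.89 at 24 h and 0.74 and 0.0027 at 48 h. The 24 h arrays overlapped Control and both 48 h arrays were higher, though they were the farthest apart of the 48 h pairs among the 12 called genes. The change was 0.062 at 24 h and 1.18 ± 0.27 (adjusted p = 0.0467) at 48 h, a call that 11 of 20 alternatives lost, among them the gene's other probe (0.72, adjusted p = 0.147). It was 0.81 (adjusted p = 0.105) without the first 48 h array.

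The 7 other enzymes of this stretch did not pass at either time, with changes at 24 h from -0.74 for Dhcr7 (adjusted p = 0.102), which reduces a double bond of 7-dehydrocholesterol to give cholesterol, to 0.25 for the desaturase Sc5d. Nsdhl, a sterol dehydrogenase, was closest to the threshold (-0.45, adjusted p = 0.058). At 48 h their changes ran from -0.32 for Dhcr7 to 0.45 for Hsd17b7. Fdft1, squalene synthase, changed by -0.10 at 24 h on its bright probe, whereas a dim probe, well above background on 5 of 6 arrays, gave 1.06 (adjusted p = 0.055), so the sign for this gene depended on the probe.

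Among the regulators the genes moved in both directions. Insig1, which retains the SREBPs in the endoplasmic reticulum and is itself an SREBP target, had its probe at chr5:28404246-28404305 (mm9). Its level was -0.49 and -0.22 in Control, -1.34 and -1.34 at 24 h and -0.85 and -0.95 at 48 h. The 24 h arrays were the lowest pair, and no groups overlapped. Insig1 fell by 0.98 ± 0.13 (log2 ± SE, adjusted p = 0.012, 1.98-fold) at 24 h, the largest fall of the 33 members, and its change at 48 h was -0.54 (adjusted p = 0.0529).

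Insig2, the related retention protein, was read at chr1:123201085-123201144 (mm9). It was at 1.43 and 1.39 in Control, 0.90 and 0.88 at 24 h and 0.78 and 0.74 at 48 h. Here the 48 h arrays were the lowest. The change was -0.53 ± 0.10 (adjusted p = 0.0315) at 24 h and -0.65 ± 0.10 (adjusted p = 0.0191) at 48 h, and the other probe gave -0.55 (adjusted p = 0.103) and -0.68 (adjusted p = 0.0644).

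Srebf1 encodes SREBP-1, which mainly drives fatty acid synthesis, and was the one regulator that rose (probe at chr11:60012664-60012723, mm9). Its level was -2.20 and -2.12 in Control, -1.12 and -1.08 at 24 h and -1.34 and -1.08 at 48 h. All 4 stimulated arrays were above both Control arrays. The change was 1.06 ± 0.13 (adjusted p = 0.00984, 2.08-fold) at 24 h and 0.95 ± 0.13 (adjusted p = 0.0136, 1.93-fold) at 48 h, and it was smaller with another background correction (0.61 to 0.66 at 48 h). Srebf2, which encodes the SREBP of sterol synthesis, was changed by -0.14 at 24 h (95% interval -0.46 to 0.19) and 0.13 at 48 h, and Scap by 0.075 and 0.13, none of which passed the test.

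Abca1, which exports cholesterol to apolipoproteins and is an LXR target, was dim in Control (probe at chr4:53043944-53044003, mm9). Its level was -6.18 and -4.16 in Control, -1.95 and -2.32 at 24 h and -2.71 and -2.31 at 48 h. All 4 stimulated arrays were above both Control arrays, of which 1 of 2 was well above background and which lay 2.03 apart. The level was at least 4.99-fold higher at 24 h (adjusted p = 0.0393) and at least 3.85-fold higher at 48 h (adjusted p = 0.0532), taking for the dim Control array the lowest signal that was well above background there. The gene was tested only because the stimulated arrays were bright. Stard4, which carries sterol inside the cell, was changed by -0.34 (adjusted p = 0.23) and -0.16.

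**Figure D3:**
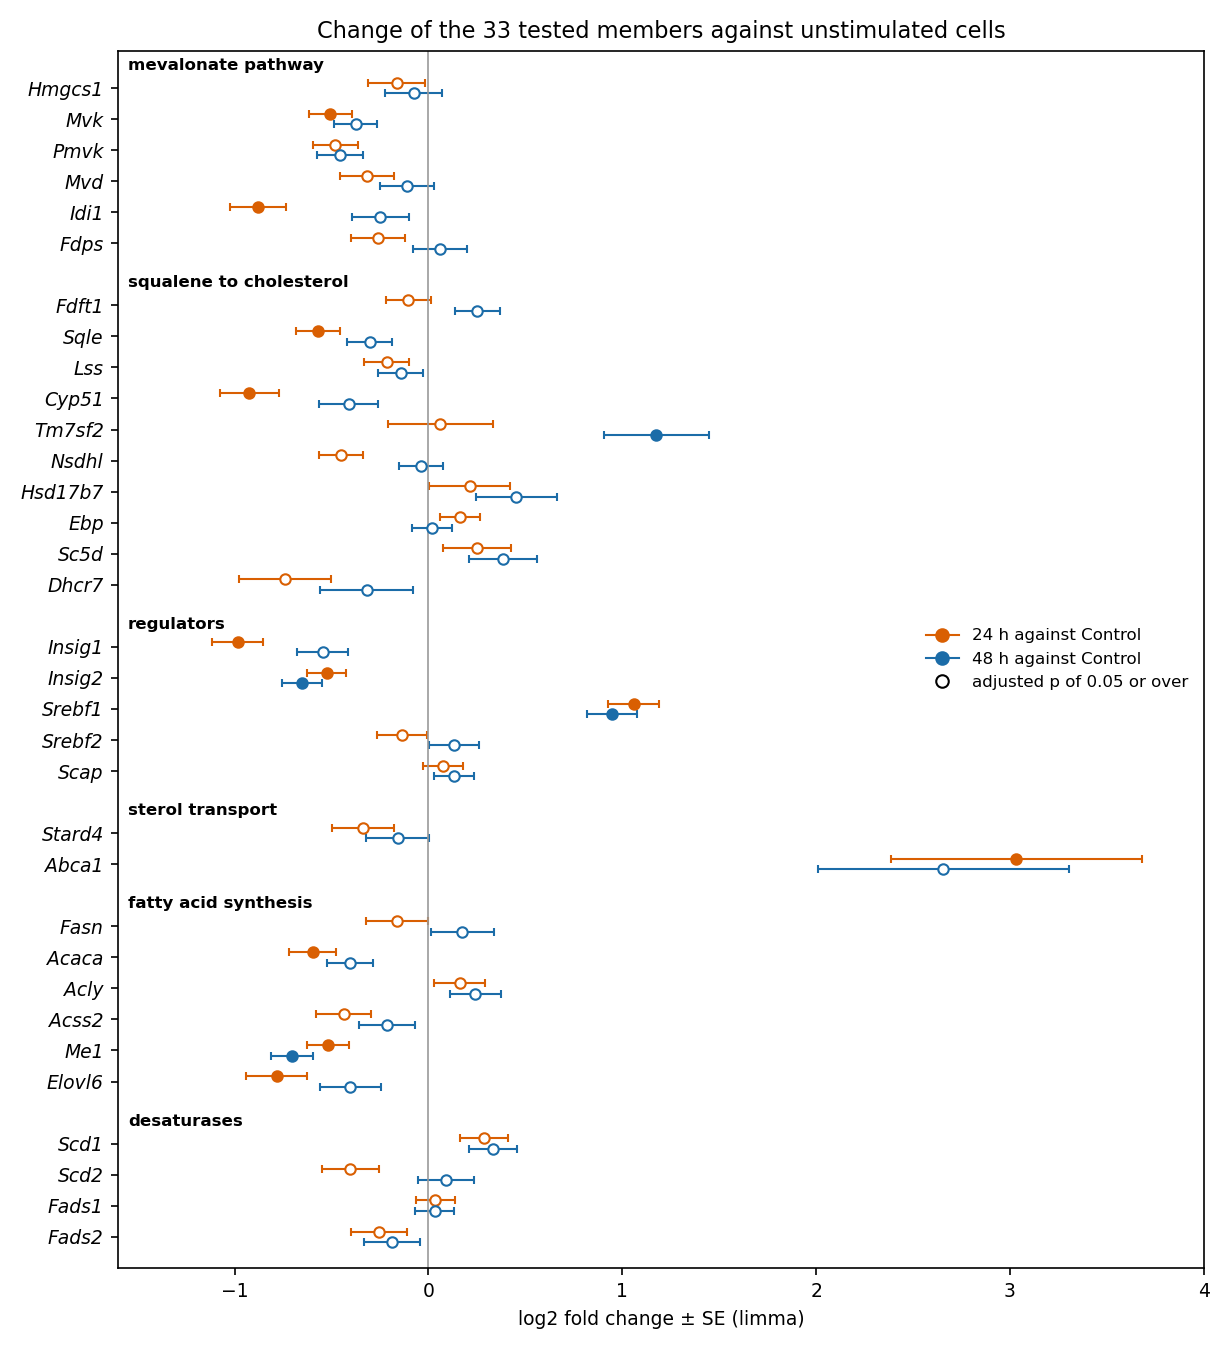
Log2 fold change against Control (horizontal axis) with the standard error of limma for the 33 tested members by role, at 24 h and at 48 h, filled where the adjusted p was under 0.05. The 6 mevalonate genes all lie left of 0 at 24 h, 9 genes are filled on the left and 2 on the right, and the bar of Abca1 is the widest (SE 0.65).

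In fatty acid synthesis, 3 of 6 members were lower at 24 h. Acaca is acetyl-CoA carboxylase, the committed step (probe at chr11:84215093-84215152, mm9). Its level was 4.35 and 4.55 in Control, 3.82 and 3.89 at 24 h and 4.06 and 4.03 at 48 h. The groups did not overlap and the 24 h arrays were the lowest. The change was -0.60 ± 0.12 (adjusted p = 0.0342) at 24 h and -0.40 (adjusted p = 0.0865) at 48 h, and the 3 further probes gave -0.58 to -0.44 at 24 h.

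Elovl6, which lengthens palmitate to stearate, was read at chr3:129341248-129341307 (mm9). It was at 2.22 and 2.47 in Control, 1.63 and 1.5 at 24 h and 2.08 and 1.80 at 48 h. Both 24 h arrays were below the rest. The change was -0.78 ± 0.16 (adjusted p = 0.0346) at 24 h and -0.40 (adjusted p = 0.157) at 48 h.

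Me1, malic enzyme, supplies NADPH for lipid synthesis (probe at chr9:86475077-86475136, mm9). Its level was 3.84 and 3.84 in Control, 3.29 and 3.36 at 24 h and 3.09 and 3.19 at 48 h. As for Insig2, the 48 h arrays were the lowest. The change was -0.52 ± 0.11 (adjusted p = 0.0365) at 24 h and -0.70 ± 0.11 (adjusted p = 0.0177) at 48 h, and the 2 further probes passed at 48 h (adjusted p = 0.0248 and 0.0216) but not at 24 h (-0.38, adjusted p = 0.0932, and -0.44, adjusted p = 0.0573).

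Fasn, the fatty acid synthase itself, was changed by -0.16 at 24 h (95% interval -0.57 to 0.24) and by 0.18 at 48 h (-0.23 to 0.58). The changes at 24 h were 0.16 for ATP citrate lyase (Acly) and -0.44 for the acetyl-CoA synthetase Acss2 (adjusted p = 0.106), whose other probe gave 0.089. None of the 4 desaturases passed at either time: at 24 h their changes ran from -0.40 for Scd2 (adjusted p = 0.133) to 0.29 for Scd1 (adjusted p = 0.188), and Fads1 was changed by 0.036 with a 95% interval of -0.22 to 0.29.

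The second question was whether the differences were still present after 48 h of CSF-1. The 24 h and 48 h comparisons share the Control arrays, so their values stand side by side here. At 48 h, 2 of 33 members were lower (6.06%, against 7.38% of all genes), Insig2 and Me1, and 2 were higher (6.06%, against 6.58%), Srebf1 and Tm7sf2. Both shares were near those of all genes. The median change of the members was -0.074 and that of all genes -0.044. At the study's thresholds 2 members were higher (4.66% of all genes), Tm7sf2 and Abca1, and 0 lower (1.83%). Of the 9 members lower at 24 h, 7 had a smaller fitted change at 48 h, and the 2 exceptions were Insig2 and Me1. These 9 were picked by their calls at 24 h, and that choice alone favours smaller changes at 48 h. In all, 21 of 33 members passed at neither time. With each array left out in turn, the median change of the members at 48 h ran from -0.16 to 0.032. The calls at 48 h depended on single arrays too, among the members and among all genes.

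The third comparison set 48 h directly against 24 h. No gene passed the adjusted threshold (0% of all genes by limma, smallest adjusted p of a member 0.191), so the differences are described at the unadjusted level. At an unadjusted p under 0.05, 7 members were higher at 48 h (21.2%, against 4.38% of all genes) and 0 lower (against 9.24%). The 7 were Idi1, Fdft1, Cyp51, Tm7sf2, Nsdhl, Insig1 and Scd2. The fitted difference was above 0 for 27 of 33 members (81.8%) and for 34.9% of all genes. The median difference was 0.19 for the members and -0.085 for all genes.

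The differences were 0.63 ± 0.15 for Idi1 (95% interval 0.26 to 0.998), 1.11 ± 0.27 for Tm7sf2, 0.51 ± 0.15 for Cyp51, 0.49 ± 0.15 for Scd2, 0.44 ± 0.13 for Insig1, 0.41 ± 0.11 for Nsdhl and 0.36 ± 0.12 for Fdft1. On the other side, Me1 was at -0.18 (adjusted p = 0.508) and Insig2 at -0.13 (adjusted p = 0.629). All 6 mevalonate genes and 9 of 10 genes from squalene to cholesterol were above 0. The count at the unadjusted level was 3 in place of 7 without either 24 h array or without the first 48 h array, and without the first 24 h array the median difference of the members was 0.16.

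**Figure D4:**
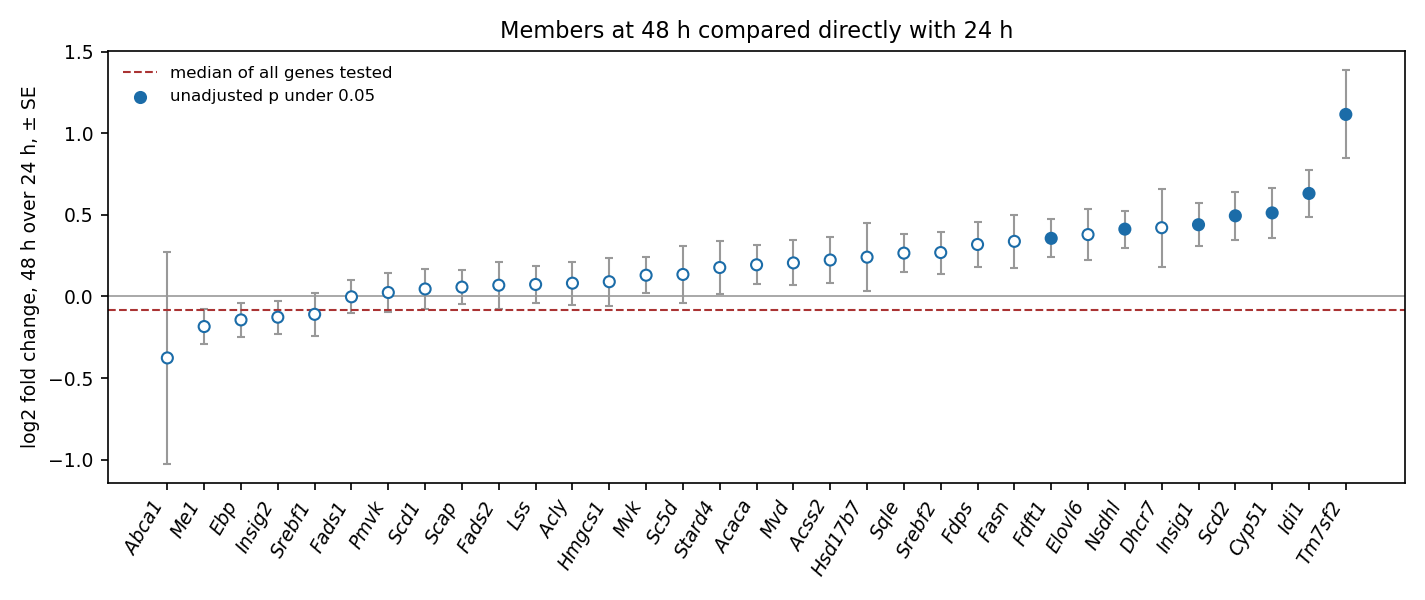
Log2 fold change of 48 h over 24 h (vertical axis) with its standard error for the 33 tested members in order of size, filled where the unadjusted p was under 0.05, with the median of all genes as a dashed line (-0.085). The 7 filled genes all lie above 0, and 5 of 33 members lie below the dashed line.

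The level of all genes depended on the scaling. With each array centred on its median instead of shifted by its 75th percentile, the median change of all genes at 24 h was -0.26 in place of 0.037, and 16 members were lower and 2 higher, against 15% and 4.66% of all genes. The distance of the members' median from that of all genes was -0.30 under both, and -0.21 to -0.34 with other scaling, background correction or averaging of probes. The 9 genes lower at 24 h were below 0 under every alternative tried, in 178 of 178 values. They were chosen as lower on these same arrays. Alternatives that alter only the spread, the filter or the 48 h arrays leave the fitted change as it was. The count thus does not measure how firm the falls are.

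**Figure D5:**
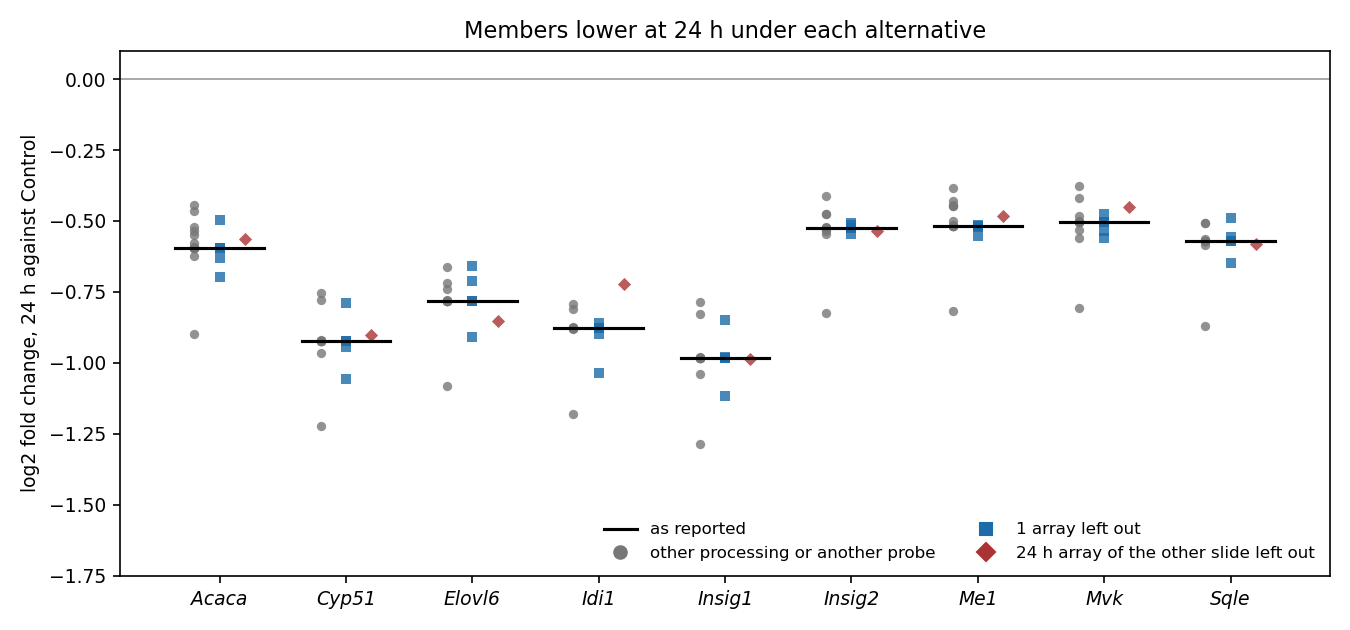
Log2 fold change at 24 h against Control (vertical axis) of the 9 lower genes as reported (black line), under other processing or with another probe (circles), with 1 array left out (squares) and without the 24 h array of the other slide (diamonds). All points lie below 0, and the lowest circle of each gene is median centring.

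The neighbouring pathways were read from lists of genes that hold no member, chosen with earlier results of these arrays known, with the largest called genes given by name. Their counts stand against 8.02% of all genes higher and 5.99% lower at 24 h, and 6.58% higher and 7.38% lower at 48 h. Of 13 other genes of isoprenoid and sterol synthesis, 4 were lower at 24 h and 5 at 48 h. Pdss2 and Coq2, which build ubiquinone from isoprenoids, fell at both times, by 1.07 and 0.92 at 24 h (adjusted p = 0.00599 and 0.0112).

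Of 12 genes of SREBP processing and sterol sensing, 2 were lower at 24 h (16.7%, all genes 5.99%), 3 at 48 h (25%, all genes 7.38%) and 0 higher. Pgrmc2, a membrane protein of the progesterone receptor component family, changed by -0.80 (adjusted p = 0.0179) and -0.60 (adjusted p = 0.036), its relative Pgrmc1 by -0.55 (adjusted p = 0.0548) and -0.68 (adjusted p = 0.033), and Mbtps2, the protease that makes the second cut in SREBP, by -0.64 (adjusted p = 0.0401) and -0.40 (adjusted p = 0.12). Of 12 tested genes of the LXR axis and oxysterols, 1 was higher at 24 h (8.33%, near the 8.02% of all genes), 2 at 48 h (16.7%, all genes 6.58%) and 0 lower. Lpcat3, a phospholipid acyltransferase and LXR target, rose by 0.54 (adjusted p = 0.0324) and 0.52 (adjusted p = 0.0354), and the transporter Abca7 was changed by 0.40 (adjusted p = 0.0734) and 0.64 (adjusted p = 0.0242).

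Of 14 tested genes of sterol uptake, esterification and transport, 3 were higher (21.4%, all genes 8.02%) and 1 lower (7.14%, all genes 5.99%) at 24 h, and 5 (35.7%, all genes 6.58%) and 1 (7.14%, all genes 7.38%) at 48 h. Cav1, the coat protein of caveolae, was at 1.3 and 1.09 in Control, -0.60 and -0.64 at 24 h and -0.18 and -0.35 at 48 h. It fell by 1.82 (adjusted p = 0.0029) and 1.46 (adjusted p = 0.00427). Stard3, which moves cholesterol from late endosomes, rose by 0.97 at both times (adjusted p = 0.0115 and 0.0123), and Npc1, which lets cholesterol leave lysosomes, was changed by 0.79 (adjusted p = 0.0556) and 1.11 (adjusted p = 0.0254).

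Of 16 tested genes of triglyceride synthesis and lipid droplets, 6 were higher (37.5%, all genes 8.02%) and 1 lower (6.25%, all genes 5.99%) at 24 h. At 48 h, 6 were higher (37.5%, all genes 6.58%) and 0 lower (all genes 7.38%). Mgll at both times and Cidec at 24 h entered the tests only through stimulated groups, where they are bright. Among the 14 genes well above background on all 6 arrays, 4 were higher at 24 h and 5 at 48 h. Of all genes tested in the same fit, 8.02% and 6.58% were higher. In a fit of only genes well above background on all 6 arrays, 8.5% and 7.68% were. Fabp4, a fatty acid carrier of adipocytes and macrophages, was at -0.50 and 0.059 in Control, 0.98 and 0.78 at 24 h and 2.73 and 2.90 at 48 h. It rose by 1.1 (adjusted p = 0.031) and 3.04 (adjusted p = 0.00224). Mgll, monoglyceride lipase, was well above background on 1 of 2 Control arrays (-5.36 and -3.80), and was at -2.30 and -1.85 at 24 h and -2.41 and -2.00 at 48 h. Plin2, a droplet coat protein, was changed by 0.91 (adjusted p = 0.0828) and 1.26 (adjusted p = 0.0384). Of 4 adipocyte markers, 1 was well above background on all 6 arrays, and their summed level was 0.47 to 0.73 with no order between the groups. Of 11 macrophage markers, 6 were well above background on all 6 arrays. Only Cd14 was called, higher at both times (0.87 and 0.69, adjusted p = 0.0101 and 0.0191 by limma). The summed level was 78.3 and 78.5 in Control, 76.6 and 74.5 at 24 h and 69.6 and 58.5 at 48 h. The brightest of these markers were the transduced Csf1r and Itgam, whose changes were -0.43 (adjusted p = 0.264) and -0.65 (adjusted p = 0.12) for Itgam. The part of these shifts was not tested.

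Of 19 other tested genes of fatty acid synthesis, elongation and activation, 1 was higher (5.26%, all genes 8.02%) and 3 lower (15.8%, all genes 5.99%) at 24 h, and 2 and 2 at 48 h (10.5% each, all genes 6.58% and 7.38%). The acyl-CoA synthetases Acsl4, which prefers arachidonate, and Acsl1 moved in opposite directions: Acsl4 rose by 1.24 (adjusted p = 0.0117) and 1.18 (adjusted p = 0.0139), while Acsl1 fell by 0.74 (adjusted p = 0.0165) and 0.49 (adjusted p = 0.0471). Fads3, a relative of the desaturases Fads1 and Fads2, fell by 0.67 (adjusted p = 0.0386) and 0.77 (adjusted p = 0.0278). Of 15 tested genes of fatty acid oxidation, 1 was higher (6.67%, all genes 8.02%) and 2 lower (13.3%, all genes 5.99%) at 24 h, and 1 and 1 at 48 h (6.67% each, near the shares of all genes). Ppard, a nuclear receptor that drives oxidation, rose by 1.5 (adjusted p = 0.0105) and 0.90 (adjusted p = 0.0384), Hadhb, a subunit of the mitochondrial trifunctional protein, fell by 0.70 (adjusted p = 0.025) and 0.65 (adjusted p = 0.0304), and Ppargc1a was changed by -0.81 (adjusted p = 0.0234) and -0.30 (adjusted p = 0.229).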

How the data were processed

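RNA of N18-Fms cells was hybridized by the authors to 6 single-color Agilent mouse arrays, 2 each of Control, CSF1 24H and CSF1 48H, grouped by the sample titles. The authors deposited the Agilent Feature Extraction output (11.0.1.1 in the file headers) with the processed signal of each spot, a linear intensity after background subtraction and detrending, not normalized between arrays. The mean and local background intensity and the flags of the software were deposited in the same files. A series table of log2 values, also deposited by the authors, was used as an alternative, and its scaling is not given in the sources used here.

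In R 4.3.3 spots flagged as outliers were left out, replicate spots were averaged, and the log2 of the 75th percentile over the non-control spots of each array was subtracted. The probe with the highest mean stood for each gene. A gene was kept where each array of at least 1 group was well above background (24648 of 36028). Limma 3.58.1 was fitted to all 6 arrays with group means (3 residual and 2.393 prior degrees of freedom), and p-values were adjusted over all genes tested by Benjamini and Hochberg. A call is an adjusted p under 0.05 at any fold. Adjusted p-values of further probes came from a separate limma fit over probes and were adjusted over the probes tested, so they are not on the footing of the calls. For the bright probe of Tm7sf2 at 48 h that fit gave 0.0523, and the fit over genes 0.0467. The study's own thresholds, which are not adjusted, were an alternative. With 2 arrays a group the number of arrays limits the precision. The fit was tested on simulated data. The members and all lists were chosen with earlier results of these data known. Named are members called in any comparison or at an unadjusted p under 0.05 with at least 2-fold, and from each further list up to 3 called genes with the largest mean change over both times; the others are given by range, and some genes of the lists are not reported here. Promoter windows came from RefSeq tables, probe positions (mm9) from the files, and no annotation of exons was used here. Alternatives were other background correction, normalization, filter, probe choice, prior spread, samples in the fit, slide or replicate block, the call rule, and leaving out each array.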

Additional observations from a re-analysis of the deposited data

How the results depend on the processing

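No change of a called gene reversed under any alternative, though several alternatives leave the fitted change as it was by construction. At 24 h, the members called lower numbered 9 as reported, 16 with median centring, 4 with only the groups compared in the fit, 1 with no filter on dim probes (which tests 36028 genes in place of 24648), 0 with the slide as a block and 0 at the study's thresholds. Those called higher numbered 2 as reported, 1 with quantile normalization, with no filter, with all 6 arrays well above background or with only the groups compared, and 0 with the slide as a block. At 48 h, those called lower numbered 2 as reported (7.38% of all genes). They numbered 6 with normexp before the 75th percentile (11.9%) or with limma-trend (13.8%), and 4 with all 6 arrays well above background (11.7%). The count was 0 with no filter (0.583%) and 0 at the study's thresholds (1.83%). Those called higher numbered 2 as reported, 4 with normexp before quantile normalization, 1 with quantile normalization, the mean of a gene's probes, only the groups compared or the slide as a block, and 0 with no filter. The share of all genes called moved as well. Lower at 24 h were 5.99% as reported, 15% with median centring, 3.49% with only the groups compared and 0.974% with no filter. Higher at 24 h were 8.02% as reported, 5.8% with quantile normalization, 6.81% with only the groups compared and 2.69% with no filter. Higher at 48 h were 6.58% as reported, 8% with normexp before quantile normalization and 1.83% with no filter. The slide block equals leaving out the first 24 h array, since no other array shares its slide. Between the times, 1 member passed the study's thresholds (Tm7sf2). With median centring the members' medians were -0.56, -0.17 and 0.40 in the 3 comparisons, and with the mean of a gene's probes the last was 0.10. The cause was not tested where the construction of the alternative does not give it.

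With each array left out in turn, fewer or as many members were called against Control in either direction, and no member was called between the times. The share of all genes called against Control fell in each of these fits too, so the counts of members alone do not tell the members from all genes. The medians ran from -0.34 to -0.23 at 24 h, -0.16 to 0.032 at 48 h and 0.16 to 0.25 between the times. An arm of 1 array is assumed to vary like the others.

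The labels number the replicates but do not say that a number marks a shared experiment. Deviations of same-numbered arrays correlated at 0.13, 0.094 and 0.20 over genes. With the replicate block, 8 members were lower and 2 higher at 24 h, against 6.32% and 9.1% of all genes. At 48 h they were 2 and 2, against 8.63% and 7.47% of all genes.

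Signals near background, as for Abca1 in Control, depended on the processing: its fitted change at 24 h was 3.03 as reported, 1.1 with normexp before the 75th percentile, 0.96 with normexp before quantile normalization, and 2.02 and 4.05 without the first and the second Control array. With 2 arrays a group, falls of the size of Pmvk and Nsdhl were at the threshold. Over the 15 calls given by gene, 179 of 295 alternative values kept the call and 116 lost it.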
